A study of Mus musculus with 8 samples.

Results

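The enzymes that build triglyceride in the liver were followed in messenger RNA from livers of mice given either of 2 adeno-associated viral vectors. The members were taken by symbol from the deposited count table, which lists 31910 genes, and all 10 symbols were found: Gpam, Agpat2, Agpat3, Lpin1, Lpin2, Lpin3, Dgat1, Dgat2, Mogat1 and Mogat2. Of these, 9 had at least 1 read in at least 1 library and 8 had enough reads to be tested among 12358 genes. Both groups are liver tissue, 4 libraries labelled AAV2/9-SA (SA) and 4 labelled AAV2/9-Ctrl (Ctrl). By its title, the series is about nonalcoholic steatohepatitis, an inflamed fatty liver, and a tetramer-forming protein of bacterial origin that binds and moves acetyl-CoA carboxylase, the enzyme that makes malonyl-CoA. The design describes 3 feeding schemes: 24 weeks on high-fat food, 16 weeks on food rich in fat and cholesterol while drinking fructose and sucrose, and normal chow. Either vector was given through the tail vein, at 4.8e10 vector genomes for each mouse, once 7 weeks of feeding had passed. The labels do not give the diet, strain, sex or age behind each library, what SA stands for, the promoter of the vector, or whether each library is a separate animal. If the libraries are not separate animals, the p-values measure only the spread between these samples, which may be technical.

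Triglyceride is assembled on glycerol 3-phosphate. Glycerol 3-phosphate acyltransferases such as Gpam add the first fatty acid, acylglycerolphosphate acyltransferases (the Agpat enzymes) add the next to give phosphatidate, and lipins remove its phosphate to give diacylglycerol. Dgat1 and Dgat2 add the last fatty acid, while the monoacylglycerol acyltransferases Mogat1 and Mogat2 reach diacylglycerol by another route, which dominates in the intestine. In the liver this pathway fills lipid droplets and supplies very low density lipoprotein.

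Levels are in CPM, a gene's count divided by the library's total and scaled to 1e6, after adjustment of the totals by the trimmed mean of M-values (TMM). Total counts were 14114145 to 15922829 in 7 libraries and 28184001 in SA 4. RNA of the mitochondrial genome made up 9.23% of all counts for Ctrl 4, against 3.55% to 4.87% for the other libraries. All 8 fixed hepatocyte markers, Alb and Apoa1 among them, were tested, and their summed level was 67591 to 92866 CPM in Ctrl and 59712 to 84614 CPM in SA. Alb made up most of this sum, with a mean of 59584 ± 12196 CPM for Ctrl and of 57806 ± 10745 CPM for SA (SD, n = 4). Of the 8, 0 passed and 1, Hnf4a, had an unadjusted p under 0.05, against 6.21% of all tested genes. Hnf4a, a hepatocyte transcription factor, was at 399 to 527.5 CPM in Ctrl and 527.9 to 812 CPM in SA. Its SA libraries lay above all Ctrl libraries, as for 1.66% of all tested genes, but the nearest ones almost met. The log2 fold change of Hnf4a was 0.61 ± 0.17 (SE; edgeR, unadjusted p = 0.00313, adjusted p = 0.425). In bulk tissue, fewer cells of a type and less RNA per cell cannot be told apart.

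No triglyceride synthesis enzyme passed the test between SA and Ctrl. With the quasi-likelihood test of edgeR, 0 of the 8 tested members had an adjusted p under 0.05, against 0.0162% of all tested genes (1 higher and 1 lower). At an unadjusted p under 0.05 there was 1 member, Mogat1, which was lower, against 6.21% of all tested genes, made up of 2.91% higher and 3.29% lower. DESeq2 also called 0 members, against 0.346% of its genes. The 4 SA and 4 Ctrl libraries overlapped for all 8 tested members, while 3.12% of all tested genes had groups that did not overlap. The median log2 fold change was -0.02 over the 8 members, 3 of them positive and 5 negative, and -0.01 over all genes. The 2 members farthest from 0 were Mogat1 at -0.88 and Lpin1 at 0.80.

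The promoter sequences of those 2 members are shown because they had the largest fold changes in each direction. They run from 250 bases before to 50 bases after a transcription start, 5′ to 3′, and come from RefSeq (GRCm38.p6). The Lpin1 window is chr12:16610917-16611216 on the minus strand and the Mogat1 window chr1:78510810-78511109 on the plus strand. Capitals mark every match, on either strand, to the motifs searched.
Lpin1: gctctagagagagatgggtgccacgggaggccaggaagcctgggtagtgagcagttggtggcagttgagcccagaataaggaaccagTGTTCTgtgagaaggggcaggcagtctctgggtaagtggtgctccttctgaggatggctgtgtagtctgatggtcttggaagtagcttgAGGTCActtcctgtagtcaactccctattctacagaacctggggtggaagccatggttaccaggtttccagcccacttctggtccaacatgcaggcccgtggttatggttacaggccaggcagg
Mogat1: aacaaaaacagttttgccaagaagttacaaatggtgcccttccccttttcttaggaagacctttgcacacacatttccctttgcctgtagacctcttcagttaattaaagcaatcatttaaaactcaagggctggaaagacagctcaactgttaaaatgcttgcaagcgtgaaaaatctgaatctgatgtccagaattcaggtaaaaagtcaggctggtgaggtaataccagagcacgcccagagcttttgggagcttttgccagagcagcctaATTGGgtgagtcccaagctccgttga
Searched were the nuclear receptor half-site AGGTCA, the glucocorticoid receptor half-site TGTTCT, the E-box CACGTG, the sterol regulatory element TCACNCCAC, the CCAAT box and the TATA box TATAAA. The Lpin1 window holds 1 AGGTCA, found in 16.3% of the 32851 promoters of the same length, and 1 TGTTCT, found in 19% of them. Windows of Lpin2 and Lpin3 also hold TGTTCT, and a window of Gpam also holds AGGTCA. The Mogat1 window holds only a match to the CCAAT box, on the opposite strand and 24 bases after the transcription start. Of the promoters, 37.4% hold 1 or more. Windows of Lpin2 and Gpam also hold CCAAT. The table has promoters for 7 members, 11 windows in all. E-boxes, found in 7.15% of all promoters, are in a window of Lpin2 and a window of Lpin3, and no member window holds the sterol element or the TATA box, found in 1.24% and 13.6%. These matches describe letters only.

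The member of the first acylation step, Gpam, did not differ beyond the spread between libraries. Gpam, the mitochondrial glycerol 3-phosphate acyltransferase, was at 325, 333, 318.5 and 451 CPM in Ctrl 1 to 4 and at 401, 353, 351 and 293 CPM in SA 1 to 4. The highest and the lowest library were thus Ctrl 4 and SA 4, and the groups overlapped. Ctrl averaged 357 ± 63.0 CPM and SA 349 ± 44.3 CPM (SD, n = 4), with a log2 fold change of -0.03 ± 0.16 (SE; adjusted p = 0.996, edgeR), with a 95% interval of -0.38 to 0.32. Ctrl 4 is the library with the high mitochondrial share, and without it the value was 0.09.

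Of the 2 members of the second acylation step, only Agpat3 had counts. Agpat3, which makes phosphatidate and also remodels phospholipids, was at 343, 389, 341 and 238 CPM in Ctrl 1 to 4 and at 351, 334, 287 and 332 CPM in SA 1 to 4. Ctrl 4 was the lowest library, and the SA values lay inside the Ctrl range. Ctrl averaged 328 ± 63.9 CPM and SA 326 ± 27.1 CPM (SD, n = 4), with a log2 fold change of -0.01 ± 0.16 (SE; adjusted p = 0.997, edgeR).

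Agpat2, a main phosphatidate-forming acyltransferase of liver and fat whose loss causes lipodystrophy, is listed at 0 counts in all 8 libraries. A count of 0 allows 0.108 to 0.215 CPM per library, by 3 counts, for counting error only. The authors' FPKM table (fragment counts scaled to transcript length and library size) lists the same gene at 245, 275, 231 and 199 FPKM in Ctrl 1 to 4 and at 280, 219, 217 and 243 FPKM in SA 1 to 4. The zeros of the count table therefore do not show that the RNA was missing. On the log2(FPKM + 1) scale the difference was 0.02 ± 0.16 (SE; adjusted p = 0.999, limma), with a 95% interval of -0.36 to 0.39, where 0.0324% of the genes tested were called. In GENCODE M21, 64 of the 2130 exon bases of Agpat2 are shared with another gene, Egfl7 on the other strand. Why the counts are 0 was not tested. Of the FPKM symbols found in the count table, 495 (5.73%) likewise have 0 counts in every library, 155 of them with at least 10 FPKM in every library. Agpat2 ranked 18 by mean FPKM among these 495.

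**Figure D1:**
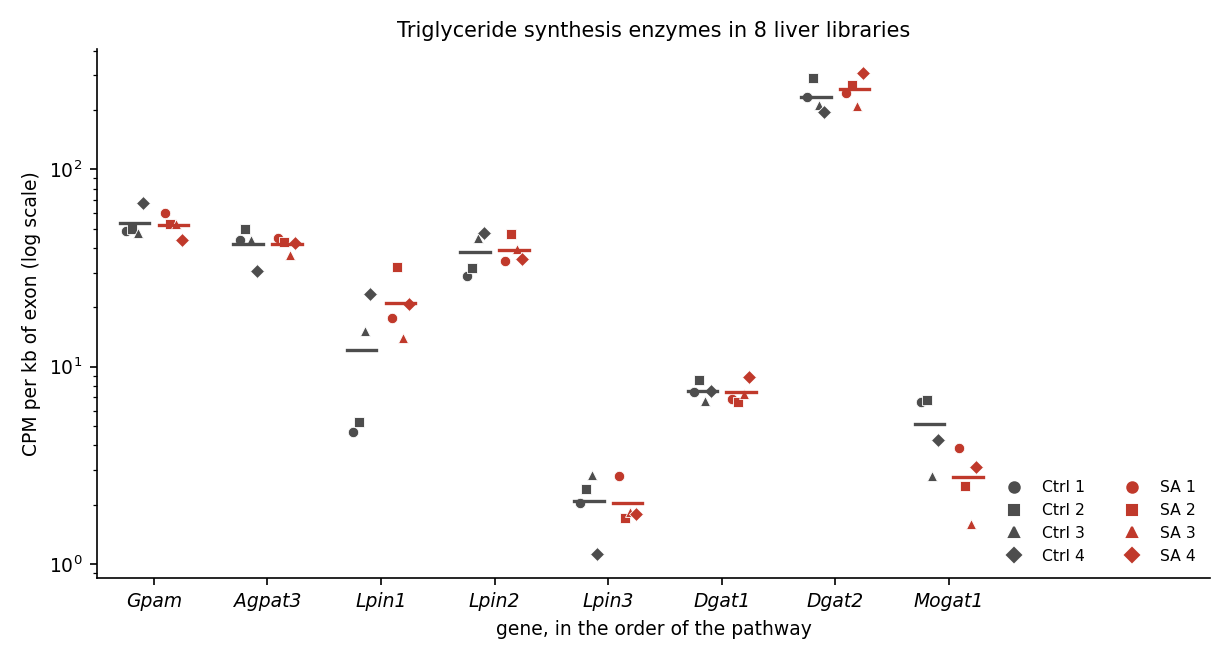
Levels of the 8 tested enzymes, as CPM per kilobase of exon on a log axis, in the order of the pathway; each point is a library (grey Ctrl, red SA, shape for the replicate number) and bars are group means. Dgat2 stands highest in every library, the groups overlap for every gene, and Lpin1 is low in Ctrl 1 and Ctrl 2.

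Among the lipins, Lpin1 varied most between libraries. Lpin1, a phosphatidate phosphatase that also acts with PGC-1alpha in the nucleus and is induced by fasting and glucocorticoids, was at 45.1, 50.7, 146 and 227 CPM in Ctrl 1 to 4. In SA 1 to 4 it was at 171, 308, 135 and 202 CPM. Ctrl 1 and Ctrl 2 lay below every SA library, whereas Ctrl 3 and Ctrl 4 lay within the SA range. Ctrl averaged 117 ± 86.7 CPM and SA 204 ± 74.6 CPM (SD, n = 4), with a 1.74-fold ratio of means and a log2 fold change of 0.80 ± 0.44 (SE; edgeR, unadjusted p = 0.0958, adjusted p = 0.918), with a 95% interval of -0.16 to 1.76. The value was 1.33 without Ctrl 4 (unadjusted p = 0.00765, adjusted p = 0.371). Leaving out Ctrl 1, Ctrl 2 or SA 2 gave 0.53, 0.55 or 0.53, and the adjusted p was 0.371 to 0.9998 over all alternatives. In the FPKM table Lpin1 was at 6.37 ± 4.53 FPKM in Ctrl and 25.4 ± 27.6 FPKM in SA (SD, n = 4). The difference was 1.501 on log2(FPKM + 1) and 1.72 on log2(FPKM + 0.1), with limma's adjusted p at 0.999 on both.

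The other lipins did not differ beyond the spread between libraries. Lpin2, mutated in a human autoinflammatory bone disease, was at 353, 386, 551 and 583 CPM in Ctrl 1 to 4 and at 418, 573, 482 and 432 CPM in SA 1 to 4. Its 2 lowest libraries were the same as for Lpin1, Ctrl 1 and Ctrl 2. Ctrl averaged 468 ± 116 CPM and SA 476 ± 70.1 CPM (SD, n = 4), with a log2 fold change of 0.03 ± 0.19 (SE; adjusted p = 0.996, edgeR). Lpin3 was at 7.51, 8.82, 10.5 and 4.16 CPM in Ctrl 1 to 4 and at 10.3, 6.32, 6.78 and 6.65 CPM in SA 1 to 4, with a log2 fold change of -0.05 ± 0.28 (SE; adjusted p = 0.996, edgeR). The libraries with the highest and lowest Lpin3 were both Ctrl, and this gene had only 58 to 184 reads a library.

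The balance between Lpin1 and Lpin2 differed between libraries. The ratio of their levels per kilobase of exon was 0.162, 0.166, 0.336 and 0.493 in Ctrl 1 to 4. In SA 1 to 4 it was 0.519, 0.681, 0.354 and 0.590. Lpin1 stayed below Lpin2 in every library, and the lowest SA ratio lay between the 2 highest Ctrl ratios.

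Neither enzyme of the last acylation step differed beyond the spread between libraries. Dgat2, which esterifies mostly newly made fatty acids, was at 714, 894, 652 and 602 CPM in Ctrl 1 to 4 and at 748, 826, 647 and 946 CPM in SA 1 to 4. The highest value was that of SA 4 and the lowest that of Ctrl 4, with the groups overlapping in between. Ctrl averaged 715 ± 128 CPM and SA 792 ± 126 CPM (SD, n = 4), with a log2 fold change of 0.15 ± 0.17 (SE; adjusted p = 0.996, edgeR) and a 95% interval of -0.23 to 0.52. Dgat1, an unrelated enzyme of the same reaction, was at 22.7, 26.2, 20.5 and 23.0 CPM in Ctrl 1 to 4 and at 21.0, 20.3, 22.3 and 27.1 CPM in SA 1 to 4. Of the 8 tested members it had the narrowest range, 1.33-fold over the 8 libraries, and a log2 fold change of -0.02 ± 0.15 (SE; adjusted p = 0.996, edgeR).

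Mogat1 was the member with the smallest p. This monoacylglycerol acyltransferase, low in healthy liver and known to be raised in fatty liver, was at 10.3, 10.5, 4.34 and 6.60 CPM in Ctrl 1 to 4. In SA 1 to 4 it was at 6.04, 3.88, 2.49 and 4.81 CPM. Ctrl 1, Ctrl 2 and Ctrl 4 lay above all SA libraries, while Ctrl 3 lay below SA 1 and SA 4. Ctrl averaged 7.95 ± 3.01 CPM and SA 4.30 ± 1.498 CPM (SD, n = 4), with a ratio of 0.541 and a log2 fold change of -0.88 ± 0.33 (SE; edgeR, unadjusted p = 0.0186, adjusted p = 0.662), with a 95% interval of -1.58 to -0.17. The values rest on 36 to 153 reads a library. Leaving out Ctrl 1, Ctrl 2 or SA 3 took the unadjusted p to 0.0565, 0.0620 or 0.0537, and the value stayed negative under all 18 alternatives, at -0.69 to -1.08, with an adjusted p of 0.395 to 0.9998. In GENCODE M21, 200 of the 1558 exon bases of Mogat1 are shared with BC035947 on the other strand. The labels do not say that strand was used in counting, so reads of these bases cannot be told apart.

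Mogat2, the intestinal monoacylglycerol acyltransferase, had 8 reads in all, 1 in Ctrl 1, 3 in Ctrl 2, 4 in SA 4 and 0 elsewhere. Each of these libraries was at or near the level of 3 counts, so no fold is given. The gene is not listed in the FPKM table. Of 8 fixed enterocyte markers, 5 had 0 counts in every library (Fabp2, Alpi, Sis, Cdx1 and Cdx2), and the summed level was 1.65 to 3.45 CPM in Ctrl and 1.27 to 2.14 CPM in SA. Fabp2 is, like Agpat2, listed in the FPKM table, at 114 to 311 FPKM.

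**Figure D2:**
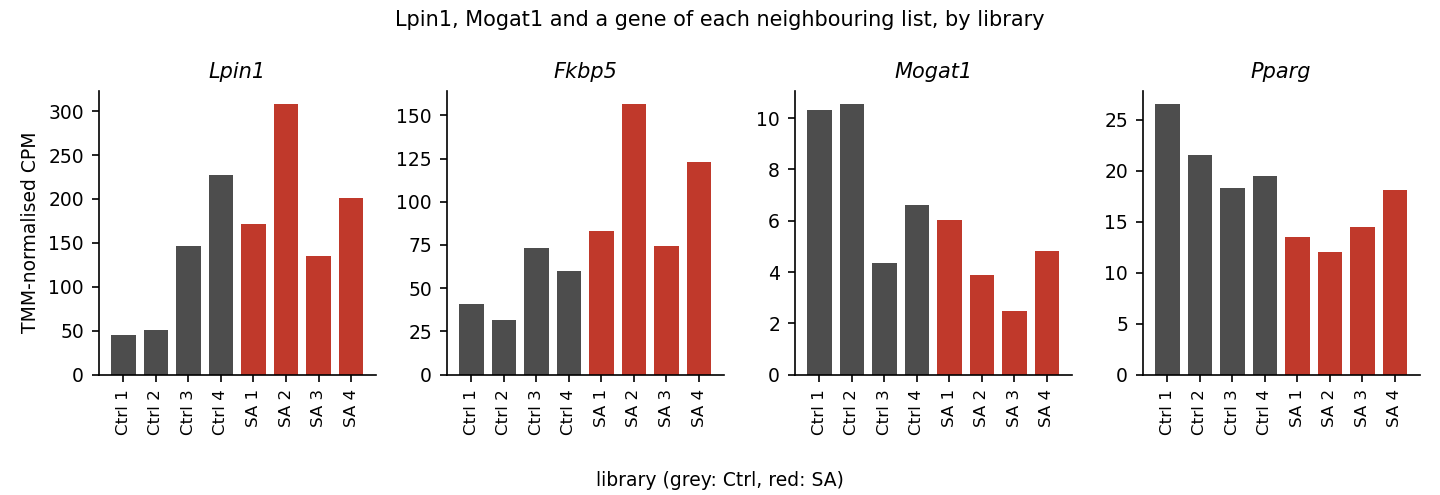
TMM-normalised CPM in each library (grey Ctrl, red SA) of Lpin1, Fkbp5, Mogat1 and Pparg, each with its own axis from 0. Ctrl 1 and Ctrl 2 have the lowest Lpin1 and Fkbp5 and the highest Mogat1 and Pparg, and the groups do not overlap for Fkbp5 and Pparg in counts, although Pparg turns direction in FPKM, at 0.0148 on log2(FPKM + 1). Fkbp5 and Pparg are the genes with the smallest p of their lists. Of the 14 fasting and glucocorticoid genes, 1, Fkbp5, had the same 2 lowest libraries as Lpin1. No such count was made for the list of Pparg, but Srebf1 and Cebpa on it were also highest in Ctrl 1 and Ctrl 2. Shares over all tested genes were not counted for these orders.

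Per kilobase of exon, Dgat2 stood above all other members with counts in every library. Agpat2 is left out of this order, since its counts are 0. On the FPKM scale it stood next to Dgat2 in Ctrl, at 238 ± 31.5 FPKM against 409 ± 72.4 FPKM, and above Agpat3 at 43.6 ± 21.0 FPKM and Gpam at 30.3 ± 1.49 FPKM (SD, n = 4). Of the members with counts, in Ctrl, Dgat2 was at 232 ± 41.4 CPM per kilobase, followed by Gpam at 53.6 ± 9.45, Agpat3 at 42.0 ± 8.202 and Lpin2 at 38.3 ± 9.45 (SD, n = 4). The ranges of Gpam and Agpat3 overlapped, as did those of Agpat3 and Lpin2, so their order is not fixed by these libraries. Lpin1 at 12.1 ± 8.97, Dgat1 at 7.56 ± 0.766 and Mogat1 at 5.10 ± 1.93 came next on the same scale. Their ranges also overlapped in that order, with Mogat1 reaching 6.77 and Dgat1 starting at 6.71. Lpin3 was at 2.10 ± 0.727, its highest library at 2.84 just above the lowest of Mogat1 at 2.79, and Mogat2 at 0.0375 ± 0.0531 CPM per kilobase (SD, n = 4).

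In SA the order was the same. Dgat2 was at 257 ± 41.0 CPM per kilobase and Lpin1 at 21.1 ± 7.72 (SD, n = 4). Here the Lpin1 range, 14.0 to 31.9, overlapped neither that of Lpin2, 34.1 to 46.8, nor that of Dgat1, 6.65 to 8.86. Mogat1, at 2.76 ± 0.961, ran from 1.598 to 3.87 and spanned the whole range of Lpin3, 1.71 to 2.80. Exon lengths are the union of all GENCODE M21 exons of a gene, so genes with long or rarely used exons are understated.

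The members also differed in how much they varied within a group. The pooled within-group SD of log2 CPM was 0.88 for Lpin1, larger than for 97.6% of tested genes. It was 0.56 for Mogat1 and 0.46 for Lpin3, larger than for 88.4% and 80.3%. Lpin2 at 0.29 was near the middle, at 51.1%, and Dgat2, Agpat3, Gpam and Dgat1 had 0.24, 0.23, 0.21 and 0.17, larger than for 34.9%, 33.1%, 26.8% and 13.5%. The spread of Lpin1 came mostly from Ctrl, where the highest library was 5.03 times the lowest, against 2.28 times in SA.

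The deposited FPKM values of some members did not follow the counts. Lpin2 was listed at 56.3 FPKM in Ctrl 1 and 62.9 FPKM in SA 1 but at 0.210 to 2.04 FPKM in the other 6 libraries. This is a 299-fold range, against 1.65-fold in CPM. Lpin1 ran from 0.966 FPKM in Ctrl 1 to 65.5 FPKM in SA 2, and Agpat3 spanned 5.39-fold in FPKM against 1.64-fold in CPM. For Mogat1 the ranges were alike, 4.59-fold in FPKM and 4.24-fold in CPM, and its FPKM means were 10.9 ± 3.76 in Ctrl and 6.33 ± 2.21 in SA (SD, n = 4). On the log2(FPKM + 1) scale Mogat1 had -0.71 ± 0.31 (SE; limma, unadjusted p = 0.0543, adjusted p = 0.999). At that unadjusted threshold limma called 0 of the 8 members listed there, against 3.52% of its genes. What made the tables differ was not tested.

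**Figure D3:**
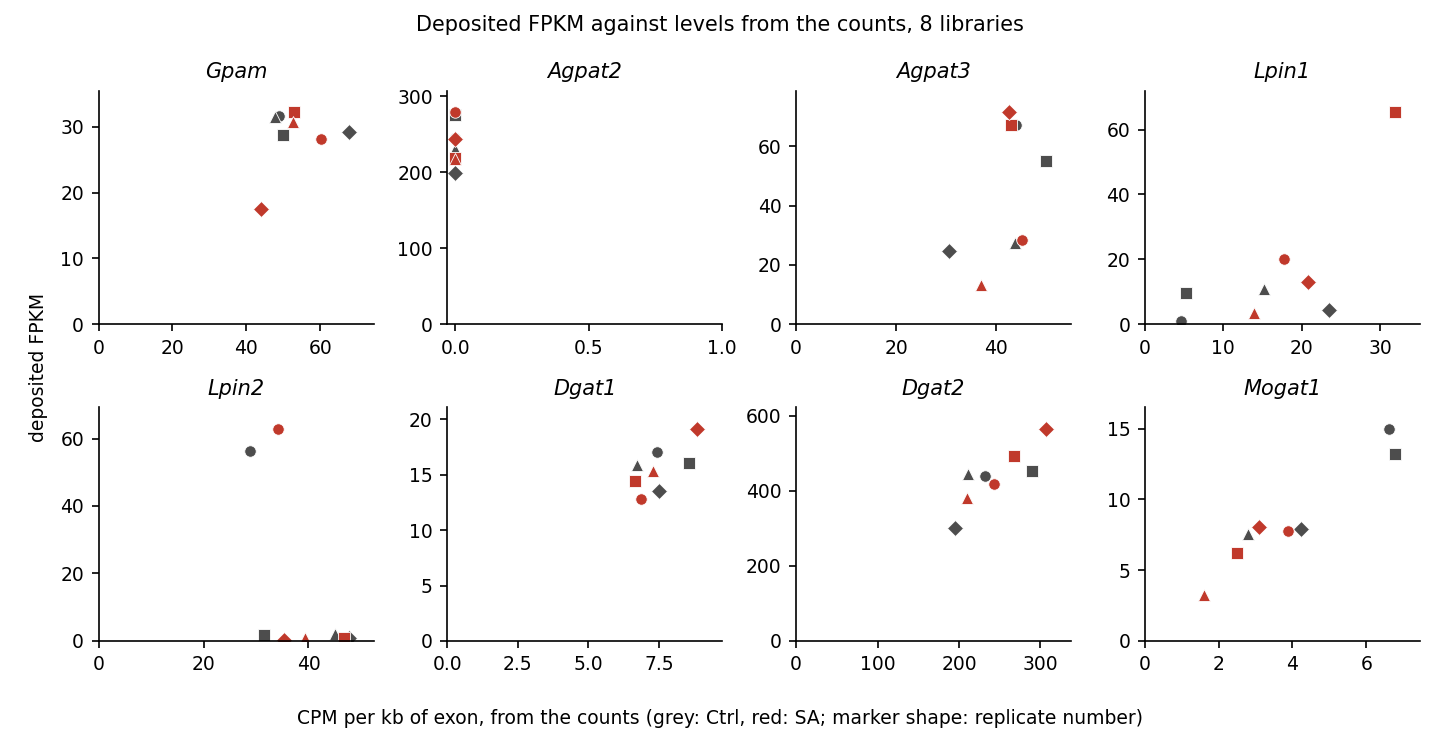
Deposited FPKM (vertical) against CPM per kilobase of exon from the counts (horizontal) for the 8 members listed in both tables, 1 point per library (grey Ctrl, red SA, shape for the replicate number), linear axes. Agpat2 is at 0 counts with 199 to 280 FPKM, and Lpin2 has 2 libraries above 50 FPKM with the others near 0.

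Among the 7 other acyltransferases of the glycerol phosphate steps, all were tested, 0 passed with edgeR and 2 had an unadjusted p under 0.05, both lower. Of all tested genes, 3.29% were lower at that p. Gpat2, a mitochondrial relative of Gpam best known from testis, was at 7.10, 5.79, 4.10 and 4.38 CPM in Ctrl 1 to 4 and at 2.21, 2.69, 2.35 and 2.42 CPM in SA 1 to 4. All SA libraries lay below all Ctrl libraries, a pattern seen in 1.46% of all tested genes. Its log2 fold change was -1.14 ± 0.25 (SE; edgeR, unadjusted p = 0.000619, adjusted p = 0.306). Gpat2 passed with DESeq2 at -1.15 (adjusted p = 0.0202), as did 0.346% of the genes in that test. Agpat5, at 16.5 to 25.8 CPM in Ctrl and 12.4 to 14.7 CPM in SA, also did not overlap and had -0.50 ± 0.18 (SE; adjusted p = 0.621, edgeR). Agpat4 had -0.25 ± 0.36 and Gpat3 0.07 ± 0.19 (SE). The list median was -0.02.

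For the supply of glycerol 3-phosphate and acyl-CoA, 10 of 11 genes were tested, 0 passed and 1 had an unadjusted p under 0.05. That p was reached by 6.21% of all tested genes. Acsl4, an acyl-CoA synthetase that prefers polyunsaturated fatty acids, was at 96.7, 69.6, 113 and 170.4 CPM in Ctrl 1 to 4 and 62.4 to 84.8 CPM in SA, with a log2 fold change of -0.55 ± 0.23 (SE; edgeR, unadjusted p = 0.0336, adjusted p = 0.761). Ctrl 4 was highest, and without it the value was -0.28 (unadjusted p = 0.119). In the FPKM table Acsl4 was at -1.96 on log2(FPKM + 1) and -2.48 on log2(FPKM + 0.1), with limma's adjusted p at 0.999. Acsl3 had -0.30, Gpd1l -0.08 and Acsl1, the main acyl-CoA synthetase of liver, 0.25 in counts but -0.26 on log2(FPKM + 1). The list median was -0.02.

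Of 17 genes that use phosphatidate or diacylglycerol outside triglyceride synthesis, all were tested, 14 had a positive value, and 0 passed with edgeR or had an unadjusted p under 0.05. The list median was 0.08, and 6014 of all 12358 tested genes had a positive value. Dgkq, a diacylglycerol kinase, had 0.22 in counts but -0.12 on log2(FPKM + 1), Cds1 0.41, Pcyt1a, which controls phosphatidylcholine synthesis, 0.11, and Cds2 0.13.

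Of 13 genes for the breakdown of acylglycerols, 11 were tested, 0 passed, and 2 had an unadjusted p under 0.05, both higher in SA. Of all tested genes, 2.91% were higher at that p. Ces1d, a carboxylesterase that hydrolyses stored triglyceride, was at 486 to 544 CPM in Ctrl and at 428, 894, 849 and 1629 CPM in SA 1 to 4. SA 1 lay below every Ctrl library and the other SA libraries above them. Its log2 fold change was 0.90 ± 0.30 (SE; edgeR, unadjusted p = 0.0103, adjusted p = 0.566), and 0.50 without SA 4 (unadjusted p = 0.0510). Abhd6, a monoacylglycerol lipase, was at 41.5 to 63.5 CPM in Ctrl and at 50.03, 82.7, 86.5 and 96.5 CPM in SA 1 to 4, with 0.60 ± 0.20 (SE; edgeR, unadjusted p = 0.0114, adjusted p = 0.571). In the FPKM table Abhd6 was at 0.0977 on log2(FPKM + 1). Mgll had 0.19 and Abhd12 -0.15, and the list median was 0.06.

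**Figure D4:**
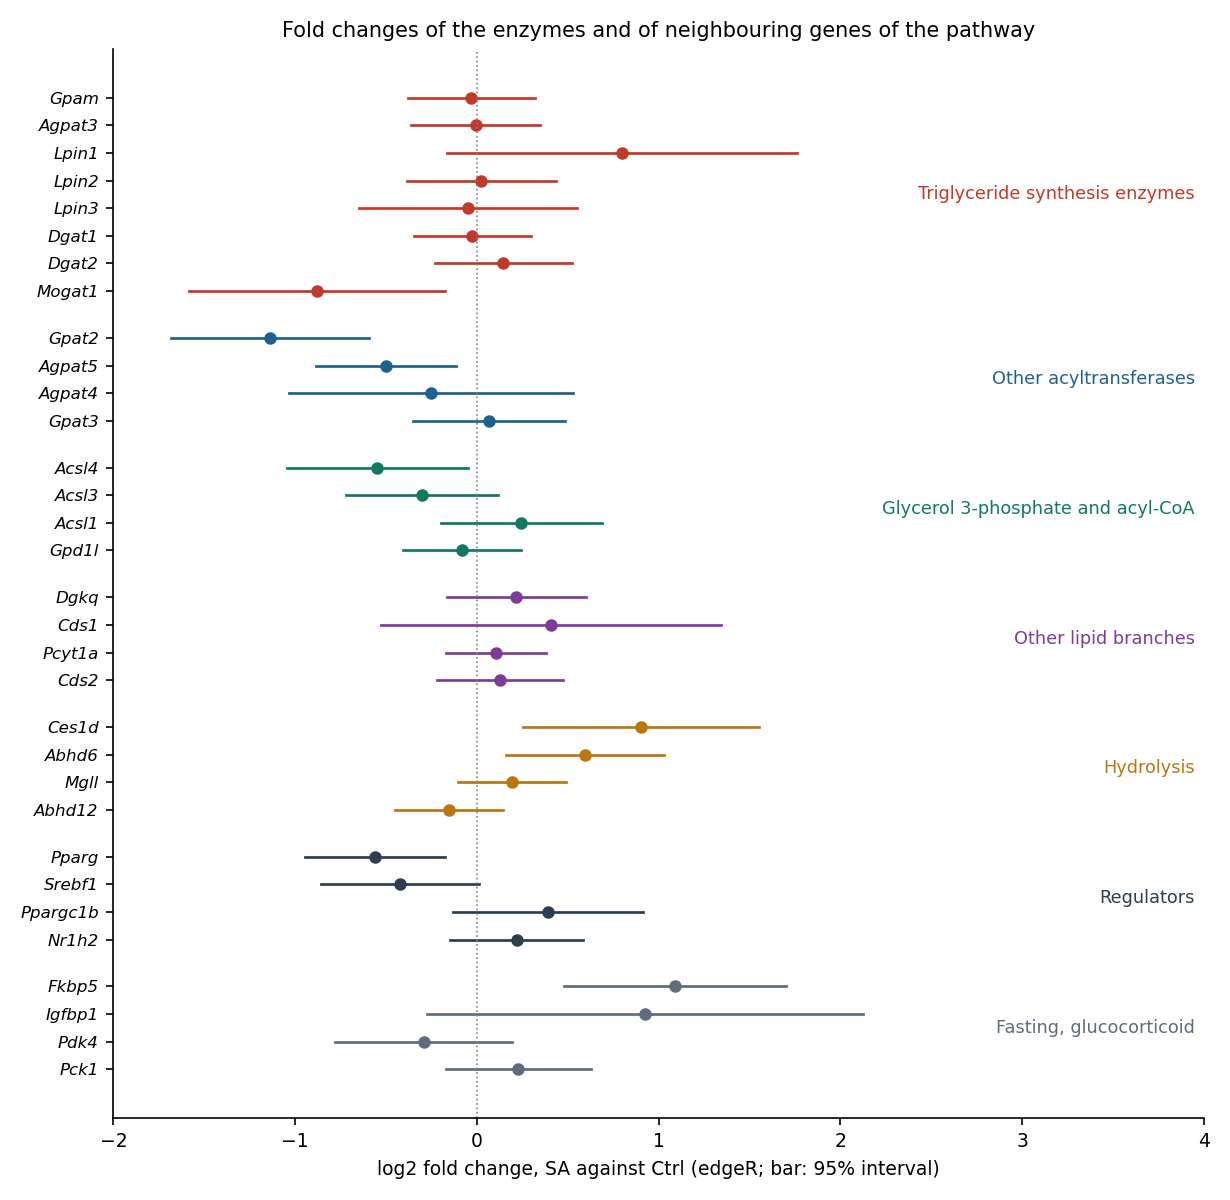
Log2 fold changes of SA against Ctrl with 95% intervals (edgeR, 4 against 4 libraries) for the 8 tested enzymes and up to 4 genes with the smallest p from each of 6 neighbouring lists. Of the enzymes only the interval of Mogat1, -1.58 to -0.17, leaves out 0, and no adjusted p was under 0.05.

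Of 13 transcription factors and co-factors known to act on triglyceride synthesis genes, all were tested and 0 passed. Pparg, a nuclear receptor known to activate Mogat1 in fatty liver, was at 26.5, 21.6, 18.3 and 19.5 CPM in Ctrl 1 to 4 and at 13.5, 12.1, 14.5 and 18.1 CPM in SA 1 to 4. All SA libraries lay below all Ctrl libraries, as for 1.46% of all tested genes, although SA 4 and Ctrl 3 were close. Its log2 fold change was -0.56 ± 0.18 (SE; edgeR, unadjusted p = 0.00796, adjusted p = 0.541). It alone on this list had an unadjusted p under 0.05, against 6.21% of all tested genes. In the FPKM table the direction turned, with 0.0148 on log2(FPKM + 1) and 0.24 on log2(FPKM + 0.1). Srebf1, which drives lipogenic genes and Gpam, had -0.42 ± 0.20 (SE; edgeR, unadjusted p = 0.0565, adjusted p = 0.828), with 472 to 867 CPM in Ctrl and 388 to 601 CPM in SA, and was at -0.14 on log2(FPKM + 1). Ppargc1b had 0.39 and Nr1h2 0.22, or 1.08 for Nr1h2 on log2(FPKM + 1). On this list 11 of the 13 values were positive, with a median of 0.08, against 6014 of all 12358 tested genes.

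Because Lpin1 is known to follow fasting and glucocorticoids, 14 genes induced by these were examined. All were tested, 0 passed with edgeR, 1 had an unadjusted p under 0.05 (6.21% of all tested genes did), and the median was 0.09. Fkbp5, a glucocorticoid-induced co-chaperone, was at 40.9, 31.5, 73.3 and 59.9 CPM in Ctrl 1 to 4 and at 83.2, 156.5, 74.5 and 123 CPM in SA 1 to 4. All SA libraries lay above all Ctrl libraries, as for 1.66% of all tested genes. Its log2 fold change was 1.09 ± 0.28 (SE; edgeR, unadjusted p = 0.00204, adjusted p = 0.367). Fkbp5 passed with DESeq2 at 1.09 (adjusted p = 0.0373), as did 0.346% of the genes in that test. Its lowest libraries were Ctrl 1 and Ctrl 2, as for Lpin1, which held for 1 of the 14 genes. Its highest library, SA 2, was that of Lpin1 too, as for 3 of the 14. Hnf4a, which is not on this list, had the same order, with 412 and 399 CPM in Ctrl 1 and Ctrl 2 and 812 CPM in SA 2. The share of all tested genes with this order was not counted. Igfbp1 had 0.93 ± 0.55 (SE), but 0.08 without SA 4 and 0.0344 on log2(FPKM + 1). In SA 4 it was at 215 CPM, against 12.3 to 79.2 CPM in the other SA libraries. Pck1 had 0.23 and Pdk4 -0.29.

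Markers of other cells were read beside these values, and 0 of them passed with edgeR. DESeq2 called 1, the macrophage marker Gpnmb, against 0.346% of its genes. Gpnmb, a glycoprotein of lipid-laden macrophages, was at 52.8, 4.55, 11.8 and 25.3 CPM in Ctrl 1 to 4 and at 3.42, 2.82, 3.596 and 2.603 CPM in SA 1 to 4. Every Gpnmb value in SA lay below every one in Ctrl, as for 1.46% of all tested genes. Its log2 fold change was -2.93 ± 0.57 (SE; edgeR, unadjusted p = 0.000210, adjusted p = 0.227), and -2.93 with DESeq2 (adjusted p = 0.0132). An unadjusted p under 0.05 was reached by 6.21% of all tested genes, 2.91% higher and 3.29% lower. Of all 12358 tested genes, 6014 had a positive value and 6344 a negative one. Of 8 stellate cell markers 7 were tested, all 7 were negative and 3 had an unadjusted p under 0.05. They summed to 344 to 626 CPM in Ctrl and 282 to 359 CPM in SA, with Lrat at 0 counts (6.06 to 11.4 FPKM). Of 7 bile duct markers 6 were tested, 5 were negative and 3 of these had an unadjusted p under 0.05, with sums of 49.98 to 150.5 CPM and 51.6 to 83.4 CPM. The macrophage markers, Gpnmb included, 8 of 8 tested, 6 of them positive and 3 with an unadjusted p under 0.05 (1 higher and 2 lower), summed to 413 to 759 CPM and 549 to 762 CPM. Endothelial markers, 5 of 6 tested and 1 of them lower at that unadjusted p, summed to 188 to 227 CPM and 141 to 235 CPM. Of 9 fat cell markers 5 were tested, and 3 had an unadjusted p under 0.05, all lower. These were Cfd at -1.46, Cidec at -0.94 and Fabp4 at -0.84, while Car3 had 0.01 and Pck1 0.23. The fat cell markers summed to 3372 to 5791 CPM in Ctrl and 3751 to 5910 CPM in SA. Most of this was Car3, with means of 2161 CPM in Ctrl and 2174 CPM in SA, and Pck1, with 2059 and 2413 CPM. Pck1 is also made by the liver and is on the fasting list too. The defining fat cell genes Adipoq and Plin1 had at most 2 reads in any library, and Lep had 0. The part of these cells in the values of Mogat1, Lpin1 and the other genes was not tested.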

How the data were processed

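Libraries were made from frozen liver with a NEBNext Ultra kit that the labels' protocols do not call strand-specific. The authors deposited whole-number counts per gene, with no normalization, and FPKM values for 9265 symbols. The tools named are HISAT2, StringTie 2.2.1 and FastQC 0.19.7, per the submitters' processing notes, which give GRCm39 and mm10 without a role. The counting program and its annotation are not given in the sources used here.

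Columns were matched to samples by the number in each sample's description. Counts were tested with edgeR 4.0.16 in R 4.3.3 (TMM, filterByExpr, quasi-likelihood F test, 4 SA against 4 Ctrl, Benjamini-Hochberg over 12358 genes, threshold 0.05). The biological coefficient of variation was 22.6%. Each standard error is the absolute fold change over the root of F. FPKM values were tested with limma 3.58.1 on log2(FPKM + 1), for genes with at least 0.5 FPKM in at least 4 libraries. Symbols were matched without regard to case. Alternatives were DESeq2 1.42.0, limma-voom, other scaling factors and filters, FPKM settings, the omission of each library and a replicate block. The closest pair of libraries differed by a chi-square of 24.6 per degree of freedom, over genes with at least 40 counts in all.

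The members and lists were chosen with earlier results of these data known. Every member is named, and from each other list up to 4 genes with the smallest unadjusted p. Further genes, among them Hnf4a, Gpnmb, Fabp2, Lrat, Adipoq, Plin1, Cfd, Cidec, Fabp4 and Car3, were named after their values were seen.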

Additional observations from a re-analysis of the deposited data

Results flagged for a closer look

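Within a group of 4 libraries, a value was set apart when its gap to the nearest other library was a larger share of the group's range than Dixon's 95% critical value, which chance gives in about 1 in 20 groups. There were 20 groups of CPM and 16 of FPKM values. The CPM groups of Agpat2, at 0 throughout, could not be flagged. In counts, Gpam in Ctrl 4 was set apart at 451 CPM, above 333 CPM in the next library. Lpin3 in SA 1 was at 10.3 CPM, above 6.78 CPM. Mogat2 in SA 4 was at 0.145 CPM, which is 4 reads, above 0 in the other SA libraries. With the others at 0, even 1 read would be set apart, so the rate of 1 in 20 does not hold for Mogat2. In the deposited FPKM, Lpin2 was at 56.3 FPKM in Ctrl 1, above 2.04 FPKM, and at 62.9 FPKM in SA 1, above 0.867 FPKM. Dgat2 was at 301 FPKM in Ctrl 4, below 439 FPKM.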

How the results depend on the processing

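No member passed under any of the 18 alternatives. Of 141 pairs of a tested member and an alternative, 22 changed sign and 119 did not. Members with an unadjusted p under 0.05 numbered 1 with edgeR as reported, 2 with limma-voom, with no low-count filter and with the replicate block (Lpin1 beside Mogat1 in each), 0 with limma on FPKM at either pseudocount and without the filter, and 0 to 2 when 1 library was left out (2 without Ctrl 4, 0 without Ctrl 1, Ctrl 2 or SA 3). Over all genes, 2 were called as reported, 60 with DESeq2, 8 with no low-count filter, 6 with the replicate block and 0 to 19 when 1 library was left out (19 without SA 1, 0 without Ctrl 4, 1 without Ctrl 1, SA 2, SA 3 or SA 4). Same-numbered libraries of the 2 groups correlated at -0.218 to 0.219 in their deviations from the group means. Only Ctrl 3 correlated best with the library of its own number, so the numbers were not taken as pairs.

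Values near 0 changed sign, and in FPKM so did those of Acsl1, Dgkq and Pparg, which were 0.25, 0.22 and -0.56 in counts. Agpat3 was 0.0122 with limma-voom and 0.0115 with the replicate block, and Lpin3 was 8.57e-05 with the block. Lpin2 was -0.00554 with upper quartile factors, -0.44 on log2(FPKM + 1) with or without the filter and -0.90 on log2(FPKM + 0.1). On the same 3 FPKM settings Acsl1 was -0.26, Dgkq -0.12, -0.14 and -0.12, and Pparg 0.0148, 0.24 and 0.0148. The cause was not tested. When 1 library was left out, Gpam ranged from -0.10 to 0.0946, Agpat3 from -0.14 to 0.0909, Lpin2 from -0.0930 to 0.14, Lpin3 from -0.26 to 0.14, Dgat1 from -0.13 to 0.0464, Gpat3 from -0.0400 to 0.17, Gpd1l from -0.13 to 0.0233 and Agpat2 in FPKM from -0.0644 to 0.0902. Depth limits Mogat1, Lpin3 and Mogat2 most.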

Other observations

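Besides Agpat2 and Fabp2, 3 further listed genes had 0 counts in every library and an entry in the deposited FPKM table. G0s2, an inhibitor of the main triglyceride lipase, was at 146 to 437 FPKM, Lipe, hormone-sensitive lipase, at 8.48 to 17.6 FPKM, and Lrat, a retinol acyltransferase of stellate cells, at 6.06 to 11.4 FPKM. Lep, Alpi, Sis, Cdx1 and Cdx2 had 0 counts and no FPKM entry.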
